A study of Homo sapiens with 6 samples.

Results

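The genes ZEB1, ZEB2, SNAI1, SNAI2, TWIST1, TWIST2 and PRRX1 were followed in the osteosarcoma cell line MG63, an established human line of fibroblast-like bone tumour cells. They were taken by symbol as 7 of the 61806 genes listed in the deposited expression table, and the selection rule uses no measured value, although earlier results of these data were known when the genes were proposed. Of the 7 genes, 6 had reads and 5 had reads in every library. The study compared MG63 cells in which FTO was stably knocked down by a hairpin RNA (shFTO) with MG63 cells given a control hairpin (shNC), to look for transcripts and pathways downstream of FTO. The FTO enzyme takes the methyl group off N6-methyladenosine in RNA. Each group held 3 libraries of poly(A) RNA, described in the labels as independent biological replicates. Whether the stable cells were single clones or pools, and how many hairpins were used, is not given in the sources used here.

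All 7 genes encode DNA-binding transcription factors of mesenchymal cells. ZEB1 and ZEB2 are large zinc-finger proteins with a homeodomain, and SNAI1 (Snail) and SNAI2 (Slug) are smaller zinc-finger proteins. Both families bind E-box sequences and repress epithelial genes such as CDH1. TWIST1 and TWIST2 are basic helix-loop-helix proteins that bind DNA as dimers with E proteins, and both are active in skeletal precursors. PRRX1 is a paired-related homeobox factor of limb and craniofacial mesenchyme. In carcinomas these factors are studied as drivers of the epithelial-mesenchymal transition, whereas bone-lineage cells are mesenchymal from the start.

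The ZEB messengers are the classical targets of the miR-200 family, small RNAs of epithelial cells. The 5 mature sequences (RefSeq, GRCh38.p14) are shown because their seeds, bases 2 to 8 in capitals, fall into 2 groups that differ by a single base.
hsa-miR-200b-3p: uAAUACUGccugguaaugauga
hsa-miR-200c-3p: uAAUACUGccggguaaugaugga
hsa-miR-429: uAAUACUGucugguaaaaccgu
hsa-miR-200a-3p: uAACACUGucugguaacgaugu
hsa-miR-141-3p: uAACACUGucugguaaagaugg
MIR200B, MIR200A and MIR429 lie together on chromosome 1, and MIR200C and MIR141 lie together on chromosome 12. The complement of the first seed group, CAGTATT, was searched on the transcript strand of the 3′ UTR of the principal coding transcript of each gene (GENCODE 29, GRCh38). It was found 5 times in ZEB1, 5 times in ZEB2 and 1 time in SNAI2, and was not found in the other 4 genes. Of 18941 coding 3′ UTRs, 14.8% held it at least 1 time and 0.0317% at least 5 times. The complement of the second seed group, CAGTGTT, was found 3 times in ZEB1 and 4 times in ZEB2, and in none of the other 5 genes. It was present in 16.7% of coding 3′ UTRs, and 0.903% held it at least 3 times. These UTRs differ in length (1938 bases in ZEB1 and 5370 in ZEB2), and a longer UTR has more room for a match. One stretch per gene and seed group is printed from GENCODE 29 transcripts, with the match in capitals.
ZEB1, chr10:31527622-31527643, plus strand: ttttatcttatCAGTATTatca
ZEB1, chr10:31528035-31528056, plus strand: atcatcagaatCAGTGTTtgtg
ZEB2, chr2:144389049-144389070, minus strand: ctaccatacatCAGTATTttta
ZEB2, chr2:144389233-144389254, minus strand: aaaattttgtaCAGTGTTaagg
The 6 listed precursor and host genes of the family, MIR200A, MIR200B, MIR200C, MIR141, MIR429 and MIR200CHG, had 0 reads in all 6 libraries. Mature miRNAs are too short and lack the poly(A) tail that these libraries select, so the 0 says nothing of their level.

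Expression was deposited as FPKM, fragments scaled to exon length and to the library total, and the whole reads behind each value were recovered from it. The libraries held between 93629 and 106245 recovered reads each, 592760 in all, with 3208 to 3435 genes detected per library. FTO itself was listed at 0 in all 6 libraries. With an upper limit of 3 reads for a count of 0, FTO could have stood at up to 0.486 FPKM over the shNC group, so the knockdown could not be checked in these values. The labelled cell type was checked against marker lists. Of 10 bone-lineage markers, 5 had reads, among them COL1A1 with 139 reads and RUNX2 with 14, while SP7, ALPL, BGLAP, SPP1 and IBSP were at 0. Of 10 blood cell markers none had reads, of 9 endothelial markers PECAM1 alone had 1 read, and of 10 epithelial markers 2 had reads, KRT18 and KRT8. Among all genes listed, 88.6% were at 0 in every library.

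In the comparison of shFTO with shNC none of the 6 genes that could be tested was called. The test was limma on log2(FPKM + 1) over 4932 genes, with Benjamini-Hochberg adjustment and a threshold of 0.05. It called 2 genes, 0.0406% of those tested, both lower in shFTO. These were the pseudogenes ENSAP2, with 5 reads in shNC and 0 in shFTO, and H3P47, with 11 and 3 reads, named after their values were seen. Reads of a pseudogene may come from a near-identical copy, so both are uncertain. Unadjusted p-values under 0.05 were found for 190 of all genes tested and for 0 of the 6. The groups overlapped for each of the 6 genes, whereas they did not overlap for 6.59% of all genes tested. The median log2 fold change was 0.19 over the 6 genes and 0.004 over all genes tested, with 5 estimates above 0 and 1 below. One of the 6, SNAI1, passed the filter on low values (a mean of at least 1 FPKM in a group) through the shFTO group alone. The reads are bulk measurements, in which fewer cells expressing a gene and less RNA per cell cannot be told apart. Each p-value weighs the difference of the groups by a scatter that is only partly that of the gene's own 3 libraries per group. Limma draws it toward the scatter of all genes tested at a similar level.

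**Figure D1:**
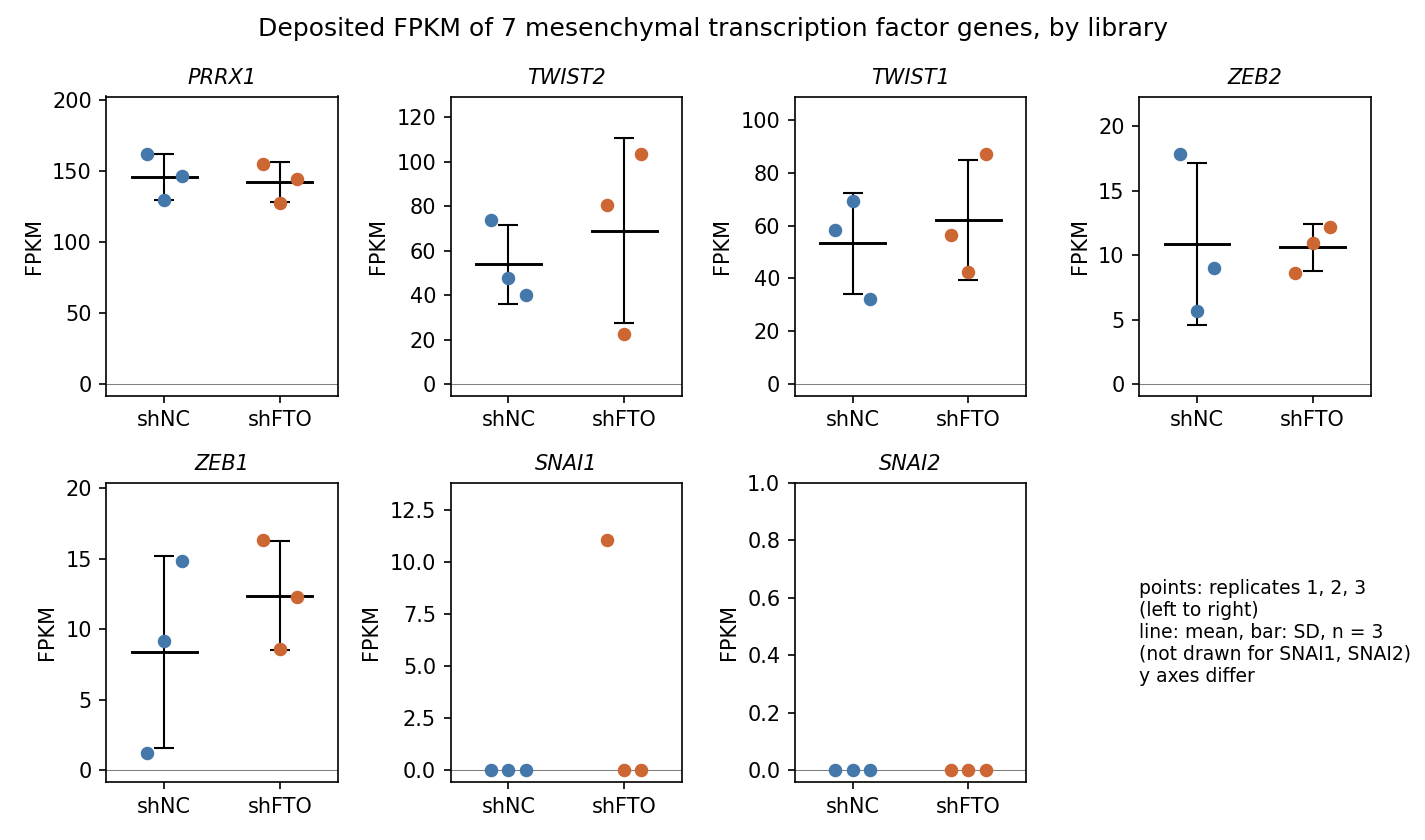
Deposited FPKM (y axes, which differ between panels) of the 7 genes in each library of shNC and shFTO. Points are replicates 1 to 3 from left to right, lines are means and bars are SD with n = 3, not drawn for SNAI1 and SNAI2. PRRX1 stands between 128 and 162 FPKM in all 6 libraries, and the groups overlap in every panel.

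PRRX1, the homeobox gene, was the most abundant of the 7 and the steadiest. PRRX1 (ENSG00000116132) lies on chromosome 1, 170662728 to 170739421, plus strand. Its level was 162, 130 and 146 FPKM in shNC replicates 1, 2 and 3, and 155, 128 and 144 FPKM in shFTO replicates 1, 2 and 3. In both groups replicate 2 was the lowest and replicate 1 the highest, and the ranges of the groups nearly coincided. The means were 146 ± 16.1 FPKM in shNC and 142 ± 13.9 in shFTO (SD, n = 3 each). These rested on 347 and 358 reads, or 705 in all, which ranked PRRX1 at place 135 by reads and 199 by FPKM among the 7057 genes with reads. The log2 fold change was -0.04 (SE 0.19, 95% interval -0.42 to 0.35, limma adjusted p = 0.960). The ratio of reads, shFTO over shNC and scaled by library totals, was 0.981, with an exact 95% interval of 0.844 to 1.14 that covers counting error only. These intervals hold no change of 1.5-fold in either direction.

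TWIST1 and TWIST2, the helix-loop-helix pair, stood at nearly the same level as each other. TWIST1 (ENSG00000122691, chromosome 7, 19020991 to 19117636, minus strand) had 58.4, 69.4 and 32.1 FPKM in shNC replicates 1, 2 and 3 and 56.6, 42.6 and 87.1 FPKM in shFTO replicates 1, 2 and 3. The lowest library was shNC replicate 3 and the highest shFTO replicate 3, and the groups overlapped. The means were 53.3 ± 19.2 FPKM in shNC and 62.1 ± 22.8 in shFTO (SD, n = 3 each), from 31 and 38 reads. For TWIST1 the log2 fold change was 0.23 (SE 0.32, 95% interval -0.42 to 0.87, limma adjusted p = 0.822). Its sign rested on single libraries, being -0.10 without shNC replicate 3 and -0.05 without shFTO replicate 3.

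TWIST2 (ENSG00000233608, chromosome 2, 238848032 to 238910534, plus strand) had 73.7, 47.7 and 40.0 FPKM in shNC replicates 1, 2 and 3. In shFTO replicates 1, 2 and 3 it had 80.6, 22.8 and 103 FPKM. The shFTO group thus held both the highest and the lowest of the 6 libraries, at 20 and 4 reads. The means were 53.8 ± 17.7 FPKM in shNC and 68.9 ± 41.6 in shFTO (SD, n = 3 each), from 29 and 40 reads. For TWIST2 the log2 fold change was 0.15 (SE 0.60, 95% interval -1.32 to 1.61, limma adjusted p = 0.952). Without shFTO replicate 2, the low library, it was 0.80, still uncalled with an adjusted p of 0.773. It was -0.04 without shNC replicate 3, -0.09 without shFTO replicate 1 and -0.27 without shFTO replicate 3.

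Both TWIST genes had 69 reads over the 6 libraries, so TWIST1 held 50.0% of the reads of the pair (exact 95% interval 41.4 to 58.6%). By library this share ran from 42.9 to 66.7%. Per 100000 reads, the pair together had 25.4, 22.8 and 13.9 reads in shNC replicates 1, 2 and 3. It had 26.4, 12.8 and 36.7 in shFTO replicates 1, 2 and 3. The means, 20.7 ± 6.05 and 25.3 ± 12.0 (SD, n = 3 each), differed by less than the spread in shFTO. The longest stretch shared base for base by transcripts of the pair was 23 bases, so few reads could fall on sequence common to both.

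ZEB1 and ZEB2, the zinc-finger homeodomain pair, stood lower than the TWIST genes per length of deposited exon. ZEB2 (ENSG00000169554) lies on chromosome 2, 144364364 to 144521057, minus strand. Its level was 17.8, 5.68 and 8.99 FPKM in shNC replicates 1, 2 and 3 and 8.64, 10.97 and 12.2 FPKM in shFTO replicates 1, 2 and 3. All 3 shFTO libraries lay inside the range of the controls, which was set by shNC replicate 1 at the top and shNC replicate 2 at the bottom. The means were 10.8 ± 6.28 FPKM in shNC and 10.6 ± 1.81 in shFTO (SD, n = 3 each), from 81 and 84 reads. The log2 fold change was 0.09 (SE 0.58, 95% interval -1.09 to 1.27, limma adjusted p = 0.966). It was -0.25 without shNC replicate 2, 0.49 without shNC replicate 1 and -0.01 without shFTO replicate 3.

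ZEB1 (ENSG00000148516) lies on chromosome 10, 31318495 to 31529814, plus strand. It had 1.23, 9.16 and 14.8 FPKM in shNC replicates 1, 2 and 3 and 16.3, 8.60 and 12.3 FPKM in shFTO replicates 1, 2 and 3. The low value of shNC replicate 1 was a single read, against 7 to 15 reads in the other libraries. The means were 8.40 ± 6.83 FPKM in shNC and 12.4 ± 3.86 in shFTO (SD, n = 3 each), from 21 and 33 reads. For ZEB1 the log2 fold change was 0.87 (SE 0.67, 95% interval -0.49 to 2.24, limma adjusted p = 0.772). Without shNC replicate 1 it was 0.04, with an adjusted p of 0.983, so the estimate rested on that library.

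The library with the fewest ZEB1 reads was the one with the most ZEB2 reads. In shNC replicate 1, ZEB2 had 44 reads (exact 95% Poisson interval 32.0 to 59.1) and ZEB1 had 1. In shNC replicate 2, a library of similar depth, ZEB2 had 15 reads (8.40 to 24.7). These are the highest and the lowest ZEB2 libraries, chosen after their values were seen, and the intervals cover counting error only. ZEB1 held 2.22% of the reads of the pair in shNC replicate 1 (exact 95% interval 0.0562 to 11.8%) and 20.6 to 38.5% in the other 5 libraries. Over all 6 libraries it held 24.7% (19.1 to 30.9%). Summed per 100000 reads, the pair had 47.7, 22.8 and 36.3 reads in shNC replicates 1, 2 and 3 and 36.7, 36.1 and 42.5 in shFTO replicates 1, 2 and 3. Those sums overlapped between the groups, at 35.6 ± 12.5 in shNC and 38.5 ± 3.54 in shFTO (SD, n = 3 each). Transcripts of ZEB1 and ZEB2 shared at most 20 bases in a row. The antisense gene ZEB2-AS1 had 2 reads in all, 1 each in shNC replicates 1 and 3. The strand setting of the counting is not given in the sources used here.

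**Figure D2:**
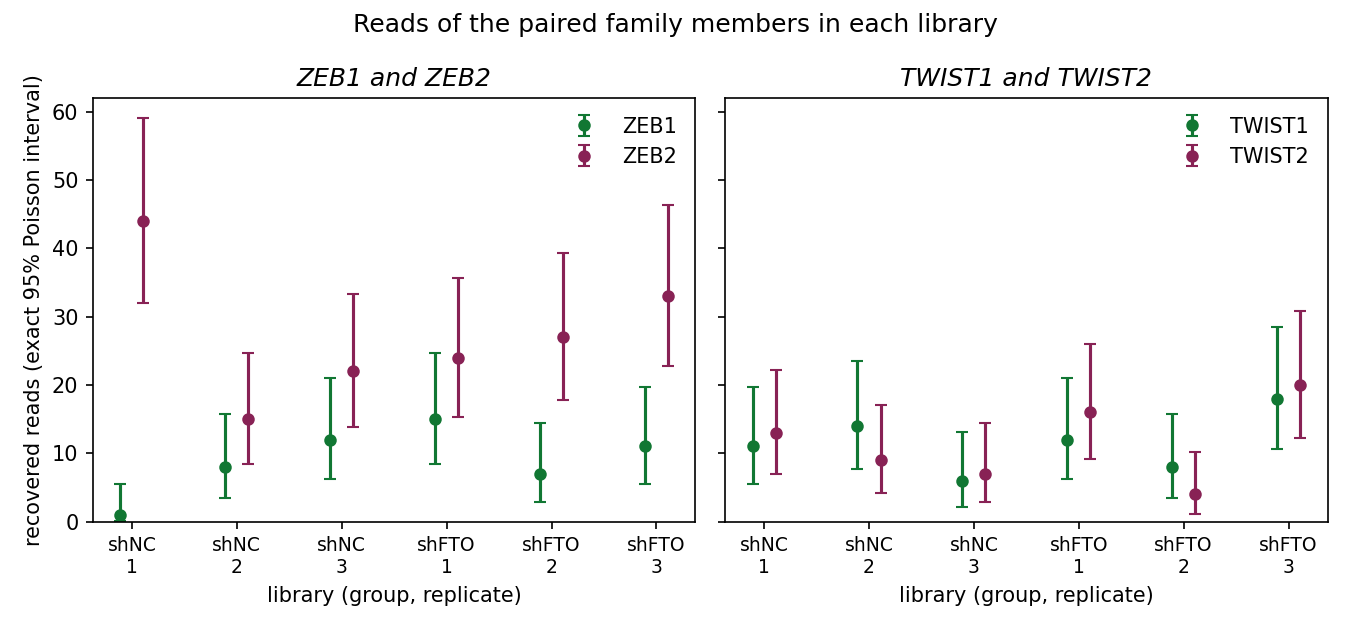
Recovered reads (y axis, with exact 95% Poisson intervals) of ZEB1 and ZEB2 on the left and of TWIST1 and TWIST2 on the right, in each library (x axis). ZEB2 has 44 reads and ZEB1 1 read in shNC replicate 1, while the TWIST genes have overlapping intervals in every library.

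The Snail pair was at or near 0. SNAI2 (ENSG00000019549, chromosome 8, 48917598 to 48921740, minus strand) was listed at 0 in all 6 libraries and was not tested. A count of 0 allows up to 3.16 FPKM over the shNC group and 3.01 FPKM over the shFTO group, or 8.61 to 9.77 FPKM in a single library. SNAI1 (ENSG00000124216, chromosome 20, 49982980 to 49988886, plus strand) had 2 reads in shFTO replicate 1, which is 11.04 FPKM, and 0 in the other 5 libraries. The exact 95% Poisson interval of those 2 reads, 0.242 to 7.22, covers the counting error. A count of 0 allows up to 6.09 FPKM of SNAI1 over the shNC group. Its fitted log2 fold change of 1.20 (SE 1.01, limma adjusted p = 0.772) depended on the pseudocount and was 2.27 with a pseudocount of 0.1. A difference in either Snail gene was not detectable at this depth unless it exceeded these limits.

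Ordered by deposited FPKM, PRRX1, the TWIST pair and the ZEB pair fell into tiers that did not overlap across libraries. The lowest PRRX1 value, 128 FPKM, was above the highest TWIST value, 103. The lowest TWIST value, 22.8 FPKM, was above the highest ZEB value, 17.8. Within the TWIST pair and within the ZEB pair the ranges overlapped, so neither pair had an order beyond its spread. The single SNAI1 value of 11.04 FPKM lay inside the ZEB range, and the limits of SNAI2, up to 9.77 FPKM in a library, reach into it. In terms of rank, TWIST2 stood in the top 4.75% and TWIST1 in the top 4.93% of genes with reads, ZEB2 in the top 14.1% and ZEB1 in the top 14.3%. PRRX1 stood in the top 2.82%.

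The pooled level of ZEB2 depended on which length its reads are divided by. The deposited length counts every exonic base of a gene, which for ZEB2 is 26151 bases. GENCODE 29 lists 31 coding transcripts of ZEB2, and its principal transcript has 9541 bases. Dividing the same pooled reads by the transcript length moved ZEB2 from 10.6 to 29.2 FPKM and ZEB1 from 10.5 to 16.8 FPKM. By library, ZEB2 then ran from 15.6 to 48.9 FPKM and ZEB1 from 1.96 to 26.0 FPKM. These ranges still overlapped, and ZEB1 was the higher of the pair in shFTO replicate 1, at 26.0 against 23.7 FPKM. PRRX1 moved from 144 to 278 FPKM pooled, TWIST2 from 62.3 to 82.9 and TWIST1 from 58.3 to 69.9, so the order of the pooled levels was the same. The gap between the ZEB and TWIST tiers was lost by library: ZEB2 in shNC replicate 1, at 48.9 FPKM, was above TWIST2 in shFTO replicate 2, at 30.3, and TWIST1 in shNC replicate 3, at 38.5. The lowest PRRX1 library, at 246 FPKM, was still above the highest TWIST library, at 138. SNAI1 stayed near 2 FPKM pooled. Which isoforms the cells used was not measured, and this scale was chosen after the data were seen.

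**Figure D3:**
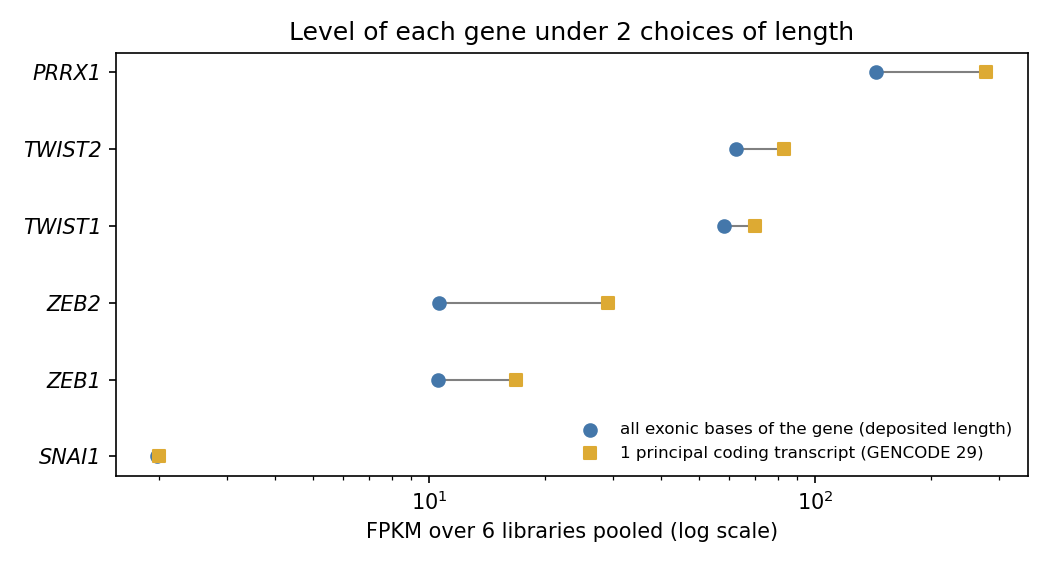
FPKM over the 6 libraries pooled (x axis, log scale) of the 6 genes with reads, with reads divided by all exonic bases (circles) or by 1 principal coding transcript (squares). The pooled levels of ZEB1 and ZEB2 are 10.5 and 10.6 FPKM by exonic length and 16.8 and 29.2 by transcript length, a scale on which their libraries still overlap.

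Among 40 other mesenchymal and skeletal lineage factors, 23 had reads and 22 were tested, and PRRX1 was higher than each of them in mean deposited FPKM. SOX4, a factor of progenitor cells, followed at 115 FPKM over all 6 libraries and 331 reads. Its values of 99.7 to 159 FPKM overlapped those of PRRX1. HAND2, a helix-loop-helix factor of limb and heart that pairs with TWIST proteins during limb patterning, came next below the TWIST genes at 22.6 FPKM. KLF4 at 12.0 FPKM and NR2F2 at 10.4 FPKM bracketed the ZEB pair. FOSL2 at 2.11 FPKM and FOXC1 at 1.75 FPKM bracketed SNAI1. TEAD1, a partner of YAP1, had 92 reads and stood at 14.4 FPKM. RUNX2, the master factor of osteoblasts, stood at 2.82 FPKM, below PRRX1, the TWIST pair and the ZEB pair in mean.

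None of the 22 lineage factors tested was called in either direction. Their median log2 fold change was 0.26, and their reads summed to 125 ± 11.4 per 100000 in shNC and 122 ± 8.33 in shFTO (SD, n = 3 each). In 3 of the 22 the groups did not overlap, all on few reads, beside 6.59% over all genes tested. EBF1 had 15 reads in shNC and 7 in shFTO, HMGA2 had 0 and 6, and FOSL1 had 0 and 4. HMGA2 and FOSL1 passed the filter through the shFTO group alone, as did TEAD3, TSHZ3 and FOXC1. LHX9 and SIX2 passed through the shNC group alone. In such genes the filter leans the sign of the estimate toward the group that passed, so the median of this list is partly set by it.

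The 7 genes together took 1064 of the 592760 reads, and PRRX1 supplied 66.3% of them. Per 100000 reads their sum was 207, 152 and 171 in shNC replicates 1, 2 and 3 and 193, 154 and 198 in shFTO replicates 1, 2 and 3. Replicate 2 was lowest in both groups, and the means of 177 ± 27.6 and 182 ± 24.1 (SD, n = 3 each) differed by less than either SD. Spread between libraries of the same group was highest for ZEB2 among the genes with reads in every library. The variance of reads within groups over their mean, scaled to library totals and near 1 for counting error alone, was 1.27 for PRRX1, 1.48 for TWIST1, 2.75 for TWIST2, 2.77 for ZEB1 and 5.07 for ZEB2. The median was 1.63 over the 705 genes that averaged 10 or more reads a library, and 4.40% of those genes exceeded ZEB2. ZEB2 thus scattered more than most genes of such depth, while 61.0% of those genes scattered more than PRRX1. The 90th percentile of those genes was 3.63, above the ratios of PRRX1, TWIST1, TWIST2 and ZEB1. Each ratio rests on only 3 libraries per group, so a difference in spread among these genes other than ZEB2 was not shown.

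**Figure D4:**
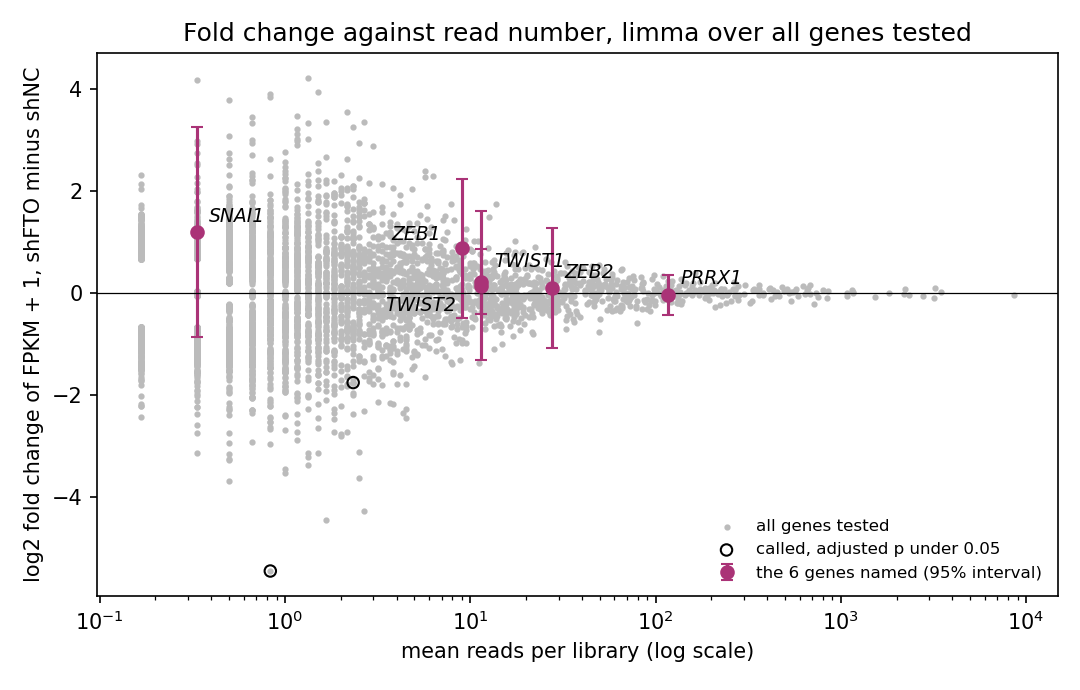
Log2 fold change of FPKM + 1, shFTO minus shNC (y axis), against mean reads per library (x axis, log scale) for all 4932 genes tested in grey, with the 6 tested genes and their 95% intervals in colour. Each of the 6 intervals crosses 0, and the interval of PRRX1, -0.42 to 0.35, is the narrowest of the 6.

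Among the 5 genes detected in every library, correlations were computed for 10 pairs over 6 libraries, and none passed an exact permutation test after adjustment. The highest Pearson correlation was that of TWIST1 with TWIST2 at r = 0.70 (exact permutation p = 0.122, adjusted p = 0.608). Spearman's rho for the TWIST pair was 0.71 (exact permutation p = 0.136, adjusted p = 0.892). Its r was 0.64 without the 2 libraries farthest from the median of TWIST1. ZEB1 and ZEB2 had r = -0.67 (exact permutation p = 0.192, adjusted p = 0.608) and rho = -0.54. Without the 2 libraries farthest from the median of ZEB1, r of the ZEB pair was 0.26. Libraries farthest from the median of ZEB2 were not left out, so which libraries set the negative sign was not settled. Pooling both groups, 3 libraries of each, left too few libraries for a correlation within a group. By shape over the 6 libraries, the genes most like PRRX1 among 704 others were PPP1R12A (r = 0.95, rho = 0.94, 159 reads), a myosin phosphatase subunit, RPLP0 (r = 0.93, rho = 0.94, 1466 reads), a ribosomal protein, and HAT1 (r = 0.89, rho = 0.89, 151 reads), a histone acetyltransferase. These are descriptions over 6 points that share library totals, picked as the highest of 704.

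The proteins that TWIST factors pair with were sparsely read. Of 7 genes for E proteins and ID inhibitors, 4 had reads and 3 were tested, with none called in either direction. TCF12 had 36 reads and TCF4 26, at 6.34 ± 4.65 and 1.45 ± 1.33 FPKM in shNC and 6.52 ± 2.94 and 1.57 ± 0.642 FPKM in shFTO (SD, n = 3 each). TCF3 and ID3, the latter an inhibitor that sequesters E proteins, had 2 reads each. ID1, ID2 and ID4 were at 0.

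Corepressors that ZEB, Snail and TWIST factors recruit were better covered. Of 35 listed genes found, 27 had reads and 23 were tested, and none was called in either direction. NCOR1, a nuclear receptor corepressor, led with 409 reads and 46.7 ± 6.47 FPKM in shNC and 43.5 ± 9.62 in shFTO (SD, n = 3 each). YY1, a zinc-finger regulator, had 64.4, 48.6 and 61.2 FPKM in shNC replicates 1, 2 and 3 and 68.2, 64.6 and 77.9 FPKM in shFTO replicates 1, 2 and 3. Its groups did not overlap, barely, and its log2 fold change of 0.28 (SE 0.26) was not called (limma adjusted p = 0.772). The groups did not overlap for 4 of the 23, beside 6.59% over all genes tested. Besides YY1 these were EED, a Polycomb subunit with 60 reads in shNC and 79 in shFTO, MTA2 with 5 and 2, and YAP1 with 5 and 0. YAP1 passed the filter through the shNC group alone. LMO4, a LIM-only adaptor, had 174 reads, at 60.1 ± 24.7 FPKM in shNC and 47.6 ± 11.6 in shFTO. Summed, the list had 329 ± 7.72 reads per 100000 in shNC and 333 ± 6.43 in shFTO.

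Regulators of the stability of these proteins gave a like count. Of 37 listed genes found, 29 had reads and 24 were tested, with 0 called in either direction. CSNK1A1, a kinase with 2283 reads, had 459 ± 16.4 FPKM in shNC and 449 ± 34.5 in shFTO (SD, n = 3 each). PSMD14, a proteasome deubiquitinase, had 542 reads, at 130 ± 13.1 and 119 ± 9.41 FPKM. COPS2, a COP9 signalosome subunit, had 236 reads, at 45.9 ± 12.2 and 60.5 ± 11.6 FPKM, with overlapping groups. The groups did not overlap for 2 of the 24, beside 6.59% over all genes tested. These were BTRC with 5 reads in shNC and 1 in shFTO, and USP11 with 0 and 3. BTRC passed the filter through the shNC group alone and USP11 through the shFTO group alone. Such regulators act on protein, which was not measured.

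Most epithelial genes that these factors repress had no reads at this depth. Of 39 such genes, 33 (84.6%) were at 0 in every library, beside 88.6% of all genes listed, and TJP1 carried 348 of the 360 reads of the list. CDH1 (E-cadherin) was among those at 0, which allows up to 1.71 FPKM over the shNC group and 1.63 over the shFTO group. TJP1 encodes the junction scaffold ZO-1, which is also made by mesenchymal cells. It had 44.0, 41.1 and 49.1 FPKM in shNC replicates 1, 2 and 3 and 56.6, 49.8 and 69.2 FPKM in shFTO replicates 1, 2 and 3. All 3 shFTO libraries were above all 3 shNC libraries, the nearest by less than 1 FPKM. Among the tested genes of this list TJP1 alone had groups that did not overlap, beside 6.59% over all genes tested. The log2 fold change of TJP1 was 0.37 (SE 0.29), which was not called (limma adjusted p = 0.772). The summed list, at 51.3 ± 5.72 reads per 100000 in shNC and 69.5 ± 10.9 in shFTO, rested mainly on TJP1. Its groups did not overlap, with 46.5 to 57.7 in shNC and 59.5 to 81.2 in shFTO. Among the lists with reads described here it was alone in this. No share of sums that do not overlap was computed to set beside it, and TJP1 carried most of its reads. KRT18, a keratin, had 3 reads each in shFTO replicates 1 and 3 and 0 elsewhere. DSP, a desmosome gene, had 2 reads in shFTO replicate 2. KRT8 had 1 read in each group, MUC1 had 1 read in shFTO alone and MAL2 had 1 read in shNC alone. None of the 4 genes of this list that were tested was called in either direction, and their median log2 fold change was 0.59. Besides TJP1 these were KRT18 and MUC1, which passed the filter through the shFTO group alone, and MAL2, through the shNC group alone.

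Mesenchymal effector genes were widely detected, with 47 of 54 having reads. Of the 37 tested, 0 were called in either direction, with a median log2 fold change of 0.16. COL6A3, a collagen VI chain, had 188 reads, at 15.2 ± 3.73 FPKM in shNC and 14.3 ± 7.07 in shFTO (SD, n = 3 each). COL1A1, the main bone collagen chain, had 139 reads, at 21.6 ± 5.30 and 30.7 ± 9.62 FPKM. ITGB1, the integrin beta-1 subunit, had 133 reads, at 16.8 ± 4.74 and 14.1 ± 1.89 FPKM. The groups overlapped for COL6A3, COL1A1 and ITGB1. Of the 37 they did not overlap for VCAN alone, beside 6.59% over all genes tested. VCAN had 1 read in shNC and 6 in shFTO and passed the filter through the shFTO group alone. ITGAV, LOXL1 and CDH2 also passed through the shFTO group alone, and ITGA5 and MMP3 through the shNC group alone. The median of this list is thus partly set by the filter. The summed list was at 253 ± 40.3 reads per 100000 in shNC and 280 ± 9.12 in shFTO.

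Signals upstream of these factors, mainly TGF-beta, BMP, Notch and growth factor genes, had reads for 30 of 38 genes. Of the 15 tested, 0 were called in either direction, and their median log2 fold change was -0.48. RBPJ, the Notch-dependent DNA-binding factor, had 135 reads, at 15.8 ± 1.76 FPKM in shNC and 14.0 ± 1.58 in shFTO (SD, n = 3 each). SMAD4, the shared SMAD of TGF-beta and BMP signalling, had 131 reads, at 13.5 ± 6.14 and 9.30 ± 3.50 FPKM, and its highest library was again shNC replicate 1, with 38 reads. SMAD7, an inhibitor of TGF-beta receptors, had 130 reads, at 62.1 ± 9.64 and 49.1 ± 26.0 FPKM. The groups did not overlap for 2 of the 15, beside 6.59% over all genes tested: TGFBR2, a TGF-beta receptor with 12 reads in shNC and 0 in shFTO, and MET, the HGF receptor, with 13 and 1. Both passed the filter through the shNC group alone. Neither was called (limma adjusted p = 0.772 for both), and both were named because their groups did not overlap. AKT1, WNT5A and HMGA1 also passed through the shNC group alone, and SRC and TGFBR1 through the shFTO group alone. In such genes the filter leans the sign of the estimate toward the group that passed, so the median of this list is partly set by it. The summed list was at 128 ± 11.3 reads per 100000 in shNC and 95.6 ± 21.8 in shFTO, with overlapping groups.

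Most listed relatives of the 7 genes in sequence and antisense neighbours were at 0. SNAI3, PRRX2, SCRT1, SCRT2, ZEB1-AS1, SNAI3-AS1, SNAI1P1 and ZEB2P1 had no read in any library, and of this list of 9 ZEB2-AS1 alone had reads. The share at 0 was 88.9% of this list, beside 88.6% of all genes listed.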

How the data were processed

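Per the file headers the authors deposited FPKM and the exonic length of each gene, and FPKM carried 2 decimals. Totals were 93629 to 106245 recovered reads per library. The submitters' processing notes name GRCh38 and HISAT2 (version 2.2.1), StringTie (1.3.3b), HTSeq (0.6.1), DESeq2 (1.50.2) and FastQC (0.10.1), with roles and strand setting not given in the sources used here. FPKM divides by a library's total, so abundant genes lower the others. The deposited exonic length, in bases (a unit outside the expression scales), turned FPKM into reads, and 100% of nonzero values came within 0.05 of a whole read.

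Genes that averaged 1 FPKM or more in a group were tested with limma 3.58.1 in R 4.3.3 (trend and robust) on log2(FPKM + 1), with group as the only term. This scale understates changes of low genes. Benjamini-Hochberg adjustment ran over all genes tested. The test was also run on simulated data in which only genes that averaged 10 or more reads a library were changed. That run does not cover ZEB1 or the Snail genes, and no statement here rests on it. Exact Poisson, binomial and permutation calculations used SciPy 1.17.1 under Python 3.11.15, and 3 reads served as the upper limit for a count of 0. Intervals and limits cover counting error only. Same-numbered replicates of the groups did not deviate together, which cannot tell whether they were prepared in pairs.

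Genes were named by rule: all 7, the 3 with most reads in each list plus called genes, lineage factors next to each of the 7 in level, and the 3 most like PRRX1 among genes that averaged 10 or more reads a library. Other genes, among them CDH1, RUNX2, DSP, KRT18 and genes whose groups did not overlap, were named after their values were seen. The 7 genes and the lists were chosen with earlier results of these data known. Alternatives were another pseudocount, other filters, limma-voom on recovered reads, a replicate block, median-of-ratios scaling, a threshold of 0.1 and each library left out in turn.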

Additional observations from a re-analysis of the deposited data

How the results depend on the processing

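None of the 4 to 6 genes tested under each of the 13 alternatives was called, over 69 estimates with limma adjusted p-values of 0.678 to 0.996; SNAI2 was never tested, and the threshold of 0.1 reused the original estimates. The number of all genes called was 2, and became 7 with a pseudocount of 0.1, 9 with no filter, 0 when genes had to average 10 reads a library (31 of 705 at an unadjusted p under 0.05) and 5 with limma-voom. Leaving out 1 library gave 2 to 9 calls: 3 without shNC replicate 1, 9 without shNC replicate 2, 7 without shNC replicate 3, 8 without shFTO replicate 1, 2 without shFTO replicate 2 and 3 without shFTO replicate 3. With the replicate block 17 genes were called. Same-numbered replicates deviated with correlations of -0.003, 0.039 and -0.012 over 705 genes. Counting error is part of these deviations, so such low correlations cannot tell whether the libraries were prepared in pairs. The cause of these shifts in the number of calls was not tested. The 9 changes of sign among these genes all came from leaving out 1 library. The log2 fold change ran from -0.12 to 0.04 for PRRX1, above 0 without shNC replicate 1 (0.042) or shFTO replicate 2 (0.041). It ran from -0.10 to 0.46 for TWIST1, -0.27 to 0.80 for TWIST2, -0.25 to 0.49 for ZEB2 and 0.04 to 1.45 for ZEB1. SNAI1 had no value without shFTO replicate 1, its only library with reads, and ZEB1 and SNAI1 fell under the filter of 10 reads. For ZEB1 and the TWIST genes, at 54 to 69 reads per gene, the 95% intervals of the read ratio reached from 0.706 to 2.72. Those intervals cover counting error only. The variance of reads over their mean was 2.77 for ZEB1, 1.48 for TWIST1 and 2.75 for TWIST2, where counting error alone gives about 1. With few libraries per group these ratios are themselves imprecise. For ZEB2, at 165 reads, the interval of the read ratio was 0.718 to 1.36, while the limma interval of its log2 fold change was -1.09 to 1.27.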
